A study of Mus musculus with 8 samples.

Results

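The nuclear receptors of retinoic acid (RA) were followed at the level of RNA in muscle stem cells (MuSCs) of mice with and without dietary vitamin A (VA). They were chosen by name and comprise 6 genes, the RA receptors Rara, Rarb and Rarg and the retinoid X receptors Rxra, Rxrb and Rxrg, of 36047 annotated genes in the data. All 6 were among the 17997 genes that passed the filter on low counts, and 41 annotated transcripts belong to them. Every mouse was a male Pax7CreERT2-Rosa26nTnG animal of 5 to 6 months, in which tamoxifen (75 mg/kg, 5 injections) activates a Cre recombinase driven by the Pax7 locus and switches a nuclear reporter from tdTomato to GFP. The mice ate the VA-free diet (3 mice) or control chow (2 mice) for 8 weeks, and nGFP+ MuSCs were sorted from gastrocnemius and quadriceps. The RNA of a mouse was split at the spin column into technical replicates A and B, and 8 libraries were analysed, which are written in the order of VA-free 1B, 2A, 3A, 3B, then control 1A, 1B, 2A, 2B. The comparison asks how the RNA of the receptors stands in MuSCs when the precursor of their ligand is missing from the diet.

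RA, made in cells from retinol, is the ligand of the RARs. An RAR binds DNA as a heterodimer with an RXR at RA response elements, which are repeats of a short core motif separated by a few bases. Without ligand the pair holds corepressor complexes at the gene, and binding of RA exchanges them for coactivators. RXRs are also the shared partner of other nuclear receptors, among them the thyroid hormone, vitamin D, PPAR and liver X receptors. Rarb is itself a classic RA-responsive gene, through an element next to the start of its shorter isoforms.

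That element was found in the reference sequence. The RefSeq promoter table (GRCm38.p6, the build of the deposited files in its last patch) held 13 promoters for the 6 genes, and each was searched on both strands for direct repeats of the 6-base core motif (TCA preceded by A or G, then G, then G or T) at a spacing of 5 bases (DR5), 2 bases (DR2) or 1 base (DR1). Each promoter spanned 250 bases before the start and 50 bases after it. Of the 13 promoters, 1 held a DR5, that of Rarb, and DR2 and DR1 were found in none of the 13. No promoter was listed at the start of Rara-203, the most abundant Rara transcript, of Rara-202 or of the upstream Rarb transcripts. Those starts were therefore not searched. In the whole table of 32851 promoters, a DR5 was found in 0.0974%, a DR2 in 0.268% and a DR1 in 0.222%. The match in Rarb runs from position -53 to -37, counted back from the annotated start, and no other match overlapped it. The 250 bases before the start (chr14:16575477-16575726, minus strand) are printed with the DR5 in capitals. The same stretch is shown for Rxra (chr2:27676951-27677200, plus strand), the receptor with the largest difference over the 5 mice, though not with the trend with gene length removed, and for Rxrg (chr1:167598112-167598361, plus strand), the only receptor that was lower on the VA-free diet. The G and C content of the stretch is 58.0% for Rarb, 81.2% for Rxra and 49.2% for Rxrg.
Rarb: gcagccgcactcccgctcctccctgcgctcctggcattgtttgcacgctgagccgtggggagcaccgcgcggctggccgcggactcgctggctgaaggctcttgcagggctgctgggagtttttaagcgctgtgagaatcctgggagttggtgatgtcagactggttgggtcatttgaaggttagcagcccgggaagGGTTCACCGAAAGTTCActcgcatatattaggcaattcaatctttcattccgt
Rxra: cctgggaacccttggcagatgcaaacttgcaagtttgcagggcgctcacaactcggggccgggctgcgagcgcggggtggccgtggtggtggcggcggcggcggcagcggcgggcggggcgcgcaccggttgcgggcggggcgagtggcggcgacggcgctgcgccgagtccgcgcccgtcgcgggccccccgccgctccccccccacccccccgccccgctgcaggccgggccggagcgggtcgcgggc
Rxrg: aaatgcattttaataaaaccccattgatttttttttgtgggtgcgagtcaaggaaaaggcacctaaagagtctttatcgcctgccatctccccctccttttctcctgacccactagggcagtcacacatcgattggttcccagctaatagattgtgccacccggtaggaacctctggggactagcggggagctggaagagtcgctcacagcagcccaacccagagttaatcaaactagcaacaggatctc

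The libraries held between 44831232 and 88650428 estimated counts. Levels of single genes between libraries are given as CPM after TMM normalization, and levels between genes as TPM, which is per transcript length. The sums of markers below are CPM of the library's total gene counts, without TMM. The check of the sort showed MuSC markers (8 genes, Pax7, Myf5 and Calcr among them) in every library, at a sum of 5290 to 5800 CPM on the VA-free diet and of 1999 to 3521 CPM on the control diet. Of these, 7 of 8 rose on the VA-free diet and none fell. Markers of other cells were also present, at a sum of 379 to 447 CPM against 2111 to 2491 CPM for 7 fibro-adipogenic progenitor genes, 121 to 184 CPM against 831 to 2365 CPM for 8 endothelial genes, 42.8 to 53.6 CPM against 247 to 681 CPM for 7 Schwann cell genes, 38.7 to 64.1 CPM against 610 to 1147 CPM for 6 tenocyte genes and 22.2 to 117 CPM against 163 to 753 CPM for 7 macrophage genes, VA-free before control. Of these lists 6 of 7, 8 of 8, 7 of 7, 5 of 6 and 3 of 7 genes fell on the VA-free diet and none rose. Pericyte and smooth muscle genes summed to 1536 to 1923 CPM against 2290 to 2892 CPM (1 of 7 rose and 3 fell) and myofiber genes to 187 to 279 CPM against 174 to 274 CPM (4 of 8 fell). None of these markers was at 0 in every library, whereas Cdh19 and Kera were at 0 in at least 1 VA-free library. The part of these markers in the receptor results was not tested, and in bulk RNA fewer cells of a type and less RNA per cell cannot be told apart. Replicates were separate mice, and the spread of the control diet rests on 2 of them.

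**Figure D1:**
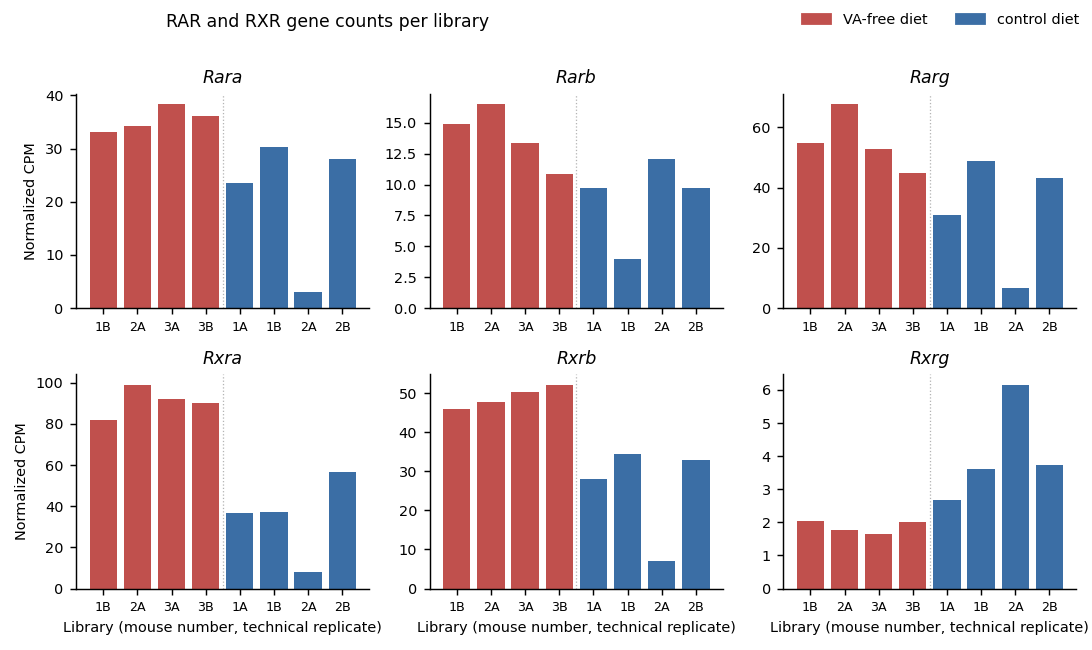
TMM-normalized CPM of each receptor gene (vertical axis, from 0, own scale in each panel) in each of the 8 libraries (bars, labelled by mouse number and technical replicate), red for the VA-free and blue for the control diet. Rara, Rarg, Rxra and Rxrb are far lower in control 2A than in control 2B, which share a mouse, and Rxrg is the only gene higher in every control library than in every VA-free library.

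Within a mouse the receptors ranked in nearly the same order on either diet, with Rarg at the top and Rxrg at the bottom of the mean TPM. In VA-free MuSCs the mean was 51.3 ± 6.36 TPM for Rarg, 43.5 ± 1.59 TPM for Rxrb and 41.4 ± 4.18 TPM for Rxra (SD, n = 3 mice). The mice overlapped between Rarg and Rxrb and between Rxrb and Rxra. Rara followed at 25.4 ± 1.19 TPM and Rarb at 19.7 ± 3.16 TPM, each without overlap with its neighbours. Rxrg stood at 1.99 ± 0.273 TPM. In control MuSCs Rarg was at 23.2 ± 7.03 TPM and Rxrb at 16.1 ± 4.33 TPM (SD, n = 2 mice), which overlapped. Rxra (12.2 ± 0.283 TPM), Rara (11.7 ± 4.003 TPM) and Rarb (8.67 ± 2.33 TPM) formed a group in which each overlapped with the next, and Rxrg was again lowest at 3.13 ± 0.755 TPM. These control means take in library 2A, and the small SD of Rxra comes from averaging 1.94 TPM in 2A with 22.8 TPM in 2B. With 2B alone for that mouse, Rara (14.5 and 16.2 TPM) no longer overlapped with Rarb (7.02 and 11.9 TPM), while Rxra (11.97 and 22.8 TPM) overlapped with Rxrb (19.2 and 22.3 TPM). The order was broken in control library 2A, where Rarb (8.73 TPM) and Rxrg (4.17 TPM) led and Rara was last (1.45 TPM). Added up, the RARs came to 96.5 ± 8.28 TPM on the VA-free and 43.5 ± 8.71 TPM on the control diet, and the RXRs to 86.8 ± 5.30 TPM and 31.4 ± 3.29 TPM. The control sums take in library 2A, with 13.7 TPM of RARs and 9.89 TPM of RXRs against 61.0 and 48.3 TPM in 2B. TPM also moved the median log2 fold change of all genes up, by 0.19 or 0.35 with a pseudocount of 1 or 0.1. The ratio of RXR to RAR TPM was between 0.821 and 1.00 in the VA-free mice and between 0.680 and 0.779 in the control mice.

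On the VA-free diet Rxra, Rxrb, Rarg and Rarb rose, Rxrg fell, and Rara was 1.63-fold higher without passing the threshold (adjusted p under 0.05, edgeR's quasi-likelihood test on counts per mouse). Thus 4 of 6 receptors were called higher and 1 of 6 lower, where 41.4% of all genes tested were called, 18.9% higher and 22.5% lower. The share of receptors called higher therefore lies above that of all genes, as a description of 6 genes. For the 6 the median of the log2 fold changes was 0.77, against 0.00296 over all genes tested. Without control library 2A, 3 of 6 were called higher (Rarb, Rxra and Rxrb) and 1 lower (Rxrg), where 39.6% of all genes were called, 18.0% higher and 21.6% lower. VA-free and control libraries were fully separate for 4 of 6 receptors (3 higher on the VA-free diet, Rara, Rxra and Rxrb, and Rxrg lower), as they were for 41.3% of all genes, 19.9% higher and 21.4% lower.

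Rxra, a broadly expressed RXR (ENSMUSG00000015846, chr2:27676440-27762957, plus strand), gave the largest difference in the comparison over the 5 mice. Its level was 81.9, 99.1, 92.2 and 90.1 CPM in the VA-free libraries and 36.9, 37.2, 7.95 and 56.6 CPM in the control libraries. All VA-free libraries lay above all control libraries, and the 2 libraries of control mouse 2 were the lowest and the highest of their diet. The mean over mice was 91.8 ± 7.76 CPM (SD, n = 3) against 35.4 ± 4.09 CPM (SD, n = 2), and the log2 fold change was 1.37 (SE 0.14, 95% interval 1.05 to 1.70, adjusted p = 0.000537). It was 0.95 without control 2A (adjusted p = 0.00638), 1.97 without control 2B (adjusted p = 0.0757) and 0.83 with the trend with gene length removed (adjusted p = 0.00651). With that trend removed Rxra was no longer the largest, since Rarb stood at 1.04 and Rxrg at -0.97. Leaving out any of the 5 mice kept the call.

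Rxrb (ENSMUSG00000039656, chr17:34031812-34038399, plus strand), likewise found in most tissues, was at 46.0, 47.6, 50.3 and 52.1 CPM in the VA-free libraries and at 28.1, 34.4, 7.07 and 32.9 CPM in the control libraries. The diets did not overlap, and the VA-free libraries were the most alike of all 6 genes. VA-free mice averaged 48.9 ± 2.65 CPM (SD, n = 3) against 26.1 ± 8.57 CPM in control mice (SD, n = 2), with a log2 fold change of 0.91 (SE 0.21, adjusted p = 0.0126). Without control 2A the fold change was 0.59 (adjusted p = 0.00641). Like Rxra, Rxrb kept its call with any of the mice left out, and lost it without control 2B (1.30, adjusted p = 0.168).

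Rarg (ENSMUSG00000001288, chr15:102234938-102257517, minus strand), the most abundant RAR, was at 54.7, 67.6, 52.7 and 44.9 CPM in the VA-free libraries. In the control libraries it was at 30.9, 48.8, 6.51 and 43.1 CPM, so that control 1B exceeded VA-free 3B. Its mean was 57.7 ± 9.37 CPM in VA-free (SD, n = 3) against 32.8 ± 11.1 CPM in control mice (SD, n = 2), with a log2 fold change of 0.81 (SE 0.24, adjusted p = 0.0310). Without control 2A it was 0.46 and the call was lost (adjusted p = 0.0502), as it was without control 1A (0.62) or 2B (1.27), VA-free mouse 1 (0.84) or 2 (0.68) or control mouse 2 (0.50).

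Rara (ENSMUSG00000037992, chr11:98927818-98974942, plus strand), the most widely expressed RAR, was at 33.1, 34.1, 38.3 and 36.1 CPM in the VA-free libraries and at 23.5, 30.3, 3.08 and 28.0 CPM in the control libraries. The lowest VA-free library was above the highest control library, by a narrow margin in control 1B. The log2 fold change was 0.70 (SE 0.24, 95% interval 0.13 to 1.27) and missed the threshold (adjusted p = 0.0532). Rara lost most when control 2A was left out, to 0.34 (adjusted p = 0.0590), and it passed when control 1B was left out (0.84, adjusted p = 0.0116) or control mouse 1 (1.17, adjusted p = 0.00194). DESeq2 on the same counts gave 0.69 and passed (adjusted p = 0.0188).

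Rarb (ENSMUSG00000017491, chr14:16430839-16819156, minus strand), the receptor whose own promoter carries the DR5 shown, was at 14.9, 16.5, 13.4 and 10.8 CPM in the VA-free libraries and at 9.72, 3.97, 12.1 and 9.70 CPM in the control libraries. The libraries overlapped, with control 2A above VA-free 3B, and the technical replicates of control mouse 1 differed 2.45-fold. VA-free mice averaged 14.7 ± 2.23 CPM (SD, n = 3) against 8.88 ± 2.27 CPM in control mice (SD, n = 2), which gave a log2 fold change of 0.72 (SE 0.23, adjusted p = 0.0447), just past the threshold. The call was lost without VA-free mouse 1, 2 or 3 (0.70, 0.63 and 0.84), without control mouse 1 (0.48), without VA-free library 3A (0.67) or control library 1A, 1B or 2B (1.00, 0.53 and 0.57), and with the trend with GC content removed (0.72, adjusted p = 0.0523). Rarb also shares bases with another gene. Its last exon lies tail to tail with that of Top2b, a DNA topoisomerase on the opposite strand, and the library kit does not mark strand, so reads there cannot be told apart. The shared bases are 57.7% of Rarb-201, 42.0% of Rarb-207 and 15.4% of Rarb-202. Top2b was at 219.9 to 228.6 CPM in the VA-free and 106 to 156 CPM in the control libraries, with a log2 fold change of 0.76 (SE 0.13, adjusted p = 0.00376), and its part in the Rarb result was not tested. The 4 Rarb transcripts that share no base with Top2b (Rarb-203 to Rarb-206) added up to 6.998, 7.94, 5.48 and 5.74 TPM in the VA-free and 0.943, 3.49, 2.16 and 5.82 TPM in the control libraries. On these transcripts control 2B lay above VA-free 3A and 3B, and the other 3 control libraries lay below every VA-free library.

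Rxrg (ENSMUSG00000015843, chr1:167598384-167639623, plus strand), an RXR of restricted expression that is found in muscle and brain among other tissues, was the only one to fall. It rested on 191, 98, 75 and 100 counts in the VA-free libraries and on 135, 159, 296 and 201 counts in the control libraries. These were 2.04, 1.75, 1.65 and 2.01 CPM and 2.68, 3.60, 6.16 and 3.73 CPM, without overlap between the diets. Over mice the mean was 1.90 ± 0.166 CPM (SD, n = 3) against 3.97 ± 1.06 CPM (SD, n = 2), and the log2 fold change was -1.06 (SE 0.30, 95% interval -1.78 to -0.34, adjusted p = 0.0285). Control 2A held the highest value, and without it the fold change was -0.87 (adjusted p = 0.0444). The call was lost without any of VA-free mice 1, 2 and 3 (-1.13, -1.01 and -1.05), control mouse 2 (-0.76), control library 1B (-0.97) or control library 2B (-1.32). Over the 24 alternatives the adjusted p ran from 1.53e-16 to 0.0757 for Rxra, from 0.000364 to 0.168 for Rxrb, from 0.00327 to 0.244 for Rarg, from 0.00194 to 0.334 for Rara, from 0.00475 to 0.220 for Rarb and from 0.00337 to 0.157 for Rxrg.

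**Figure D2:**
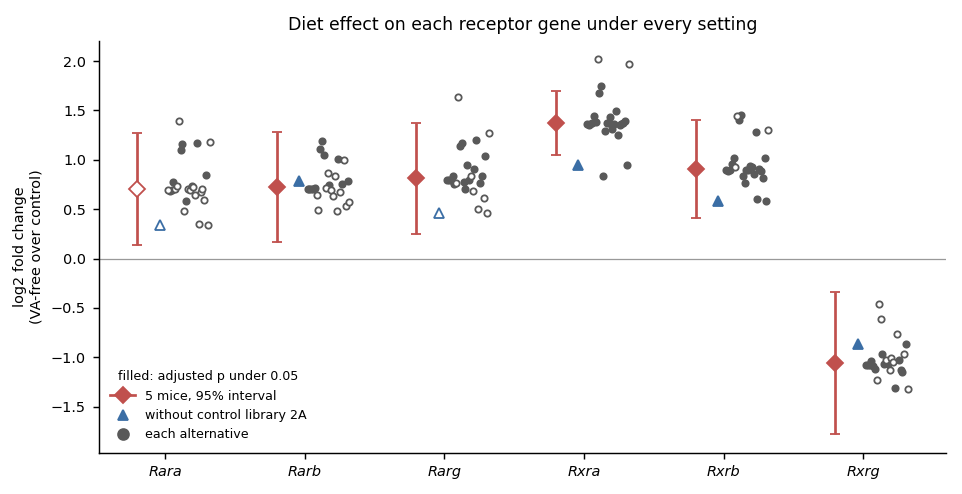
Log2 fold change of each receptor gene, VA-free over control (vertical axis), from the 5 mice with its 95% interval (red diamond), without control library 2A (blue triangle) and under each of the 24 alternatives (grey circles), with filled symbols for an adjusted p under 0.05. The sign held in 24 of 24 alternatives for each gene, whereas 22 of 24 passed the threshold for Rxra and 8 of 24 for Rara.

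Control library 2A, named in several of these results, was set beside its technical replicate. Between 2A and 2B, Rara was 9.09-fold lower, Rxra 7.12-fold, Rarg 6.62-fold and Rxrb 4.65-fold lower in 2A, whereas Rarb and Rxrg were 1.25-fold and 1.65-fold higher in 2A. Such gaps were rare among all genes, since only 0.989% had a ratio as low as that of Rara, 1.52% as that of Rxra, 1.91% as that of Rarg and 3.89% as that of Rxrb. The 4 low receptors have transcripts with a G and C content of 57.5% to 59.4%, and the other two stand at 53.8% (Rarb) and 53.9% (Rxrg). Over the 11081 genes of known GC content that averaged 5 CPM or more in this pair, the median log2 ratio of 2A to 2B fell from 0.45 in the quintile of lowest to -0.63 in the quintile of highest GC content. In that highest quintile, 16.7% of genes had less than 25% of their 2B level in 2A, against 0.316% in the lowest. Thus the 4 receptors fell well below the quartiles of genes of like GC content. The pairs VA-free 3A and 3B, and control 1A and 1B, kept every receptor within 1.58-fold apart from Rarb in control mouse 1. Removing the GC trend from the fit, a step added after these values had been seen, left Rxra at 1.29, Rxrb at 0.77, Rarg at 0.70 and Rara at 0.58, all 4 with an adjusted p under 0.05 (0.000319, 0.00502, 0.0219 and 0.0326), and Rxrg at -1.07 (adjusted p = 0.0280), where 43.0% of all genes were called, 19.7% higher and 23.4% lower. What set library 2A apart was not tested.

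**Figure D3:**
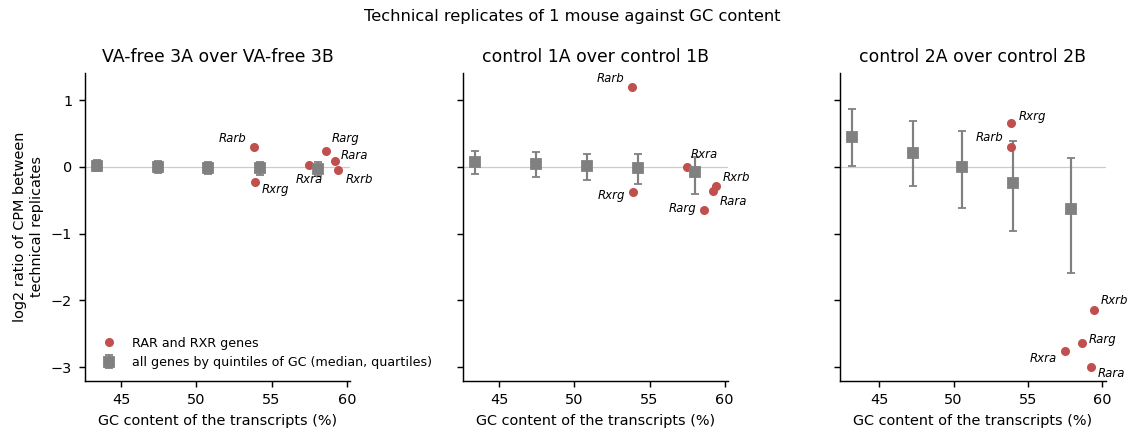
Log2 ratio of CPM (0.5 added to both) between the technical replicates of 3 mice (vertical axis) against GC content of the transcripts in percent (horizontal axis), with grey squares and bars for the median and quartiles of all genes in quintiles of GC content and red circles for the receptors. In control 2A over 2B, Rara, Rarg, Rxra and Rxrb lie between -2.99 and -2.14, under the quartiles of the highest quintile, while Rarb (0.31) and Rxrg (0.65) lie above 0.

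Across the 8 libraries the 4 receptors of high GC content moved together. The Pearson correlation of log2(CPM + 1) between pairs of Rara, Rarg, Rxra and Rxrb was 0.94 to 0.98 over 8 libraries and 0.70 to 0.96 without control 2A. Rarb correlated with these 4 at -0.04 to 0.28, and at 0.38 to 0.80 without control 2A. Rxrg correlated with them at -0.92 to -0.82, and at -0.82 to -0.48 without control 2A, the weakest being Rarg. The libraries share mice and the gap between the diets, so these values describe the set and were given no test. Of 9599 genes that averaged 10 CPM or more, those most like Rxra were Dram1, Lbx1 and Rasa3 (r from 0.998 to 0.999). Rxrb was nearest to Mtmr3, Gas2l1 and Scap (0.998 to 0.999), Rara to Scarf2, Zdhhc8 and Lrp10 (0.997 to 0.998), and Rarg to Raver1 and Zfp36l2 (0.995 to 0.996). The genes most like Rarb were Cep112, Meis1 and Cacna1d (0.968 to 0.973), and those most like Rxrg were Cnot8, Rnaseh2b and Mbip (0.976 to 0.982). All these neighbours were ranked over the 8 libraries, control 2A among them, and no ranking was made without it.

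The receptor genes are transcribed from several starts, and the isoforms differ mainly in the first exon and so in the N-terminal region of the protein. Of the 41 annotated transcripts, 29 passed the filter, and 3 of 29 were called, all higher on the VA-free diet (Rxra-201, Rxra-206 and Rxrb-202), where 12.6% of all transcripts tested were called, 4.95% higher and 7.66% lower. A further 4 had an unadjusted p under 0.05. The share of a transcript within its gene was called for 0 of 29 with edgeR's diffSpliceDGE (1 at an unadjusted p under 0.05) and for 0 of 29 with limma on the log odds (4 at an unadjusted p under 0.05), where diffSpliceDGE called 1.82% of all transcripts. For limma and for the unadjusted p-values the share over all transcripts was not taken, so those counts have no background. Assignment of 75-base reads to transcripts that share most exons is uncertain, and this uncertainty is not part of the errors.

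Rxra came mainly from its first start. Rxra-201 made up 55.6% to 70.7% of the gene's TPM in the VA-free libraries, 55.5% to 72.8% in control 1A, 1B and 2B and all of it in control 2A. Its level was 24.7 to 26.4 TPM on the VA-free diet and 1.94 to 12.6 TPM on the control diet, with a log2 fold change of 1.12 (SE 0.14, adjusted p = 0.00950). Rxra-206, which starts within 1000 bases of it, was at 6.20 to 13.9 TPM and 0 to 3.44 TPM, a log2 fold change of 2.01 (SE 0.40, adjusted p = 0.0322). Without control 2A these were 0.76 (adjusted p = 0.0371) and 1.47 (adjusted p = 0.113), so that Rxra-206 no longer passed. Rxra-202, from a start further downstream, held 9.73% to 19.8% of the gene on the VA-free and 0% to 20.6% on the control diet.

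Rxrb-202 held 61.9% to 76.4% of the Rxrb TPM on the VA-free diet and 63.8% to 79.6% on the control diet. It rose by a log2 fold change of 0.78 (SE 0.16, adjusted p = 0.0357), which was 0.44 and not called without control 2A (adjusted p = 0.116). Rxrb was also the receptor with the most retained-intron transcripts, 6 of its 10. Together these had 151, 188, 131 and 81.7 counts in the VA-free libraries and 28.3, 29.7, 3.94 and 42.2 counts in the control libraries. They made up 9.63% to 20.7% of the gene's TPM on the VA-free diet and 2.97% to 6.71% on the control diet, with no overlap. Retained-intron transcripts of all genes together held 6.88% to 7.30% of TPM in the VA-free and 5.29% to 5.42% in the control libraries, also with no overlap. Rxrb-208 was at 77.9, 71.5, 73.3 and 37.6 counts against 0, 14.4, 0 and 4.43 counts, and narrowly missed the threshold (log2 fold change 3.38, SE 0.83, adjusted p = 0.0571). In the control libraries Rxrb-204 held most of the retained-intron counts in 1A, 2A and 2B, with 24.2, 6.97, 3.94 and 33.1 counts against 31.0, 10.9, 5.83 and 11.2 counts in the VA-free libraries (log2 fold change -0.68, SE 0.70, adjusted p = 0.601), a transcript named after its values were seen. Rxrb-209 was at 0 in all 4 control libraries and had 5.87, 30.1, 39.0 and 3.86 counts in the VA-free libraries (adjusted p = 0.0716). Reads of unspliced RNA would be counted for these transcripts too, and the 2 sources cannot be told apart.

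Rarg was split between its 2 known starts in a like way on both diets. Transcripts from the upstream start (Rarg-201 and Rarg-205) held 57.0% to 68.9% of the gene's TPM in the VA-free and 47.8% to 67.7% in the control libraries. Rarg-202, from the downstream start, held 30.3% to 41.9% and 29.1% to 38.7%. Rara came mostly from Rara-203, the transcript with the start furthest upstream, at 49.96% to 74.9% of TPM on the VA-free and 46.8% to 58.8% on the control diet. Rara-204 held 7.94% to 30.9% and 19.1% to 31.5%, and Rara-202, with its start within the gene, 17.2% to 24.6% and 16.5% to 22.1%. The other 4 Rara transcripts were at 0 or near it. No share separated the diets for either gene.

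Most of the Rarb TPM was assigned to transcripts of the start that carries the DR5. The 5 transcripts that begin at 16575045 to 16575827, around the printed promoter, held 90.3% to 95.3% of the gene's TPM on the VA-free diet and 72.7% to 95.1% on the control diet. Their summed level was 13.1 to 20.3 TPM in the VA-free and 4.04 to 10.1 TPM in the control libraries, without overlap on this scale. In CPM the libraries of the whole gene overlapped, with values up to 12.1 CPM on the control and from 10.8 CPM on the VA-free diet. TPM also moved the median log2 fold change of all genes up, by 0.19 or 0.35 with a pseudocount of 1 or 0.1. Of these transcripts, Rarb-201, Rarb-202 and Rarb-207 share bases with Top2b. The 2 transcripts from the upstream start, Rarb-203 and Rarb-204, added up to 1.01 to 2.11 TPM and 0.431 to 1.79 TPM, with overlap. They are annotated only as far as 16509065 and 16548519, whereas the gene runs on to 16430839. Reads from beyond those ends could not be assigned to them, so the shares cannot measure the use of the 2 starts. The most abundant Rarb transcript, Rarb-202 (4.64 to 9.68 TPM against 1.38 to 4.65 TPM), is annotated as a target of nonsense-mediated decay, as is Rarb-206. Rxrg, at its low level, had no stable isoform pattern, since Rxrg-202 held between 0% and 68.1% of TPM in the VA-free and between 40.8% and 62.1% in the control libraries.

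**Figure D4:**
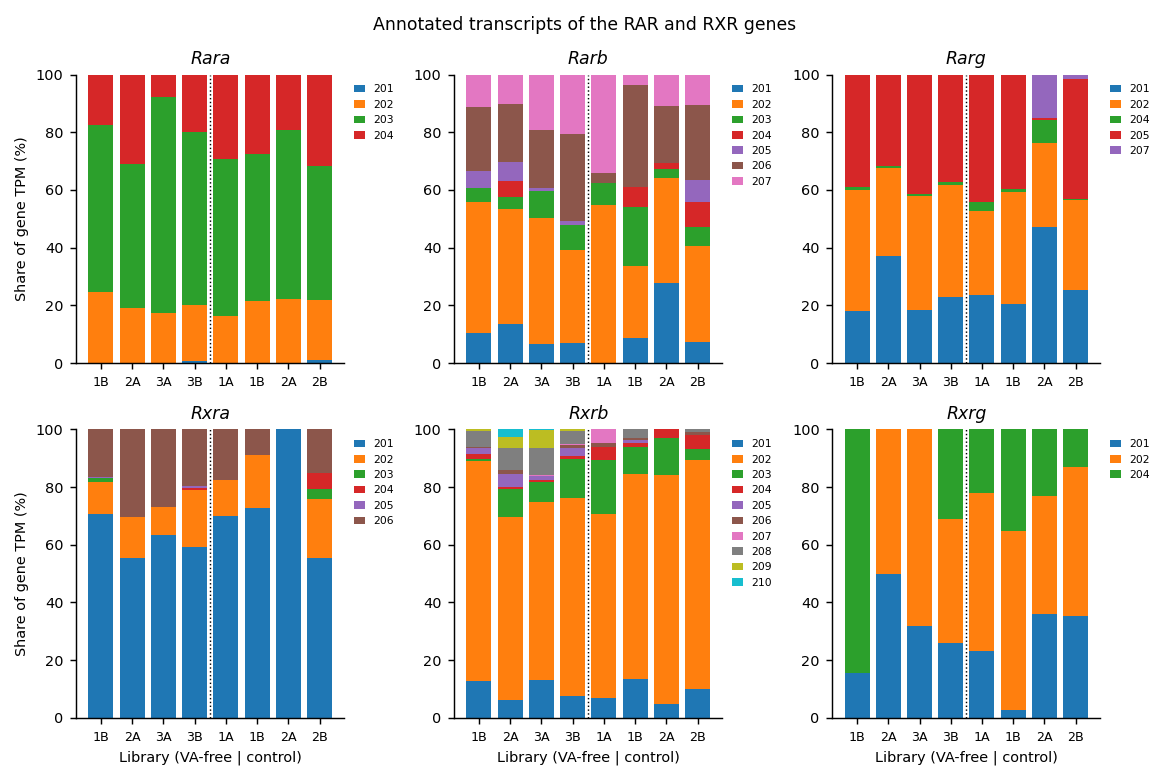
Share of each annotated transcript in the TPM of its gene, in percent (vertical axis, 0 to 100), in each library (stacked bars, VA-free left and control right of the dotted line), coloured by transcript number. Rxra-201, Rxrb-202 and Rara-203 are the largest part in most libraries of both diets, and retained-intron transcripts of Rxrb take 9.63% to 20.7% on the VA-free diet and 2.97% to 6.71% on the control diet.

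The other parts of the pathway were described by lists, each with its count and its median beside the 18.9% higher, 22.5% lower and median of 0.00296 over all genes. Of 8 corepressor genes, most of which act with receptors without ligand, 5 rose and 0 fell (median 0.55). Among these were Tbl1xr1 (1.10) and Tbl1x (0.48), subunits of the corepressor complex, Nrip1, which represses ligand-bound receptors (0.75), and Sin3a, a scaffold of histone deacetylases (0.62). Ncor1 and Hdac3, abundant in both diets at 154 and 102 TPM on the VA-free and 158 and 71.4 TPM on the control diet, had log2 fold changes of -0.24 (adjusted p = 0.299) and 0.01 (adjusted p = 0.945), and Gps2 stood at 0.03. Of 11 coactivator genes, 7 rose and 0 fell (median 0.61). Among these were Ncoa1, a steroid receptor coactivator that reached 285 TPM on the VA-free diet (1.15, SE 0.11, adjusted p = 0.000538), the acetyltransferases Ep300 (1.17) and Kat2a (0.93), the arginine methyltransferase Carm1 (1.00), Ncoa2 (0.89), Ncoa6 (0.60) and the mediator subunit Med1 (0.61). Prmt1, the most abundant of the list, did not pass (0.20, adjusted p = 0.593). Without control 2A, 4 of 8 corepressors and 6 of 11 coactivators rose, where 18.0% of all genes were called higher and 21.6% lower. Tbl1x (adjusted p = 0.0504) and Med1 (adjusted p = 0.182) dropped out, and Sin3a and Ncoa2 stood at 0.38 and 0.57.

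Of the 13 genes whose products pair with RXR, 11 were tested, 1 rose and 2 fell (median -0.26). Pparg, the PPAR of fat cells, fell by 2.50 on the log2 scale (SE 0.24, adjusted p = 0.000498) and Nr1h3, the liver X receptor alpha, fell by 0.90 (SE 0.24, adjusted p = 0.0208). Nr1i3 rose (3.60, adjusted p = 0.0191), from 0.0125 TPM to 0.127 TPM, which is close to no expression. The abundant partners Nr4a1 (1636 TPM on the VA-free and 1418 TPM on the control diet), Nr4a2 (127 and 132 TPM), Nr1h2 (107 and 80.0 TPM) and Thra (77.7 and 47.0 TPM) did not pass, with log2 fold changes of -0.26, -0.56, -0.08 and 0.24. Of the 43 other nuclear receptors, with these partners among them, 34 were tested, 9 rose and 4 fell (median 0.28). The rises included the estrogen receptor Esr1 (1.23, SE 0.14, adjusted p = 0.000825), the clock repressors Nr1d2 (1.13) and Nr1d1 (1.05), Nr2c2 (1.18) and Nr2c1 (0.59), which compete with RAR and RXR for direct repeats, the mineralocorticoid receptor Nr3c2 (0.81), Nr6a1 (0.89) and Rora (0.48). Besides Pparg and Nr1h3, Nr2f2 (COUP-TFII) fell by 1.83 and Nr5a2 fell by 3.71 on the log2 scale. Nr5a2 was low on both diets, at 0.902 TPM on the control and 0.0882 TPM on the VA-free diet, and its SE was 0.82.

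All 3 carriers of RA within the cell fell (median -2.73). Fabp5, the most abundant, went from 118 TPM on the control to 23.3 TPM on the VA-free diet (log2 fold change -2.73, SE 0.31, adjusted p = 0.000813), and Crabp2, which delivers RA to the RARs, from 3.45 to 1.01 TPM (-2.33, adjusted p = 0.00419), with Crabp1 at 1.74 and 0.190 TPM (-3.59). Of 15 direct RA target genes besides Rarb, 12 were tested, 0 rose and 6 fell (median -1.78). Dhrs3, a retinaldehyde reductase, was the abundant one among these, at 57.6 TPM on the control and 40.6 TPM on the VA-free diet (-0.90, SE 0.13, adjusted p = 0.00194). Crabp2, Rarres1 (-3.36) and Stra6, the retinol transporter (-4.67), were also among those that fell, Stra6 from 1.68 TPM on the control diet. Tgm2, at 82.7 and 83.7 TPM, had a log2 fold change of -0.40 (adjusted p = 0.242), which was -0.73 and passed without control 2A (adjusted p = 0.0237), while Dhrs3 was then at -0.58 (adjusted p = 0.0455). Cyp26a1, which degrades RA and was the only gene of this list with a DR5 in the promoter table, was at 7.86 TPM on the VA-free and 3.07 TPM on the control diet without passing (0.81, SE 0.67, adjusted p = 0.377). Some genes of the list, Crabp2 and Tgm2 among them, had no promoter there to search. Without control 2A, 9 of the 12 targets fell and 0 rose, where 18.0% of all genes were called higher and 21.6% lower. Gained were Tgm2, Cyp26b1 (-1.48) and Lrat (-2.52), the last 2 named after their values were seen. Both are low, Cyp26b1 at 0.499 and 0.633 TPM and Lrat at 0.101 and 0.400 TPM on the VA-free and control diet. The lists of markers of other cells fell in the same comparison, as given above, and their part in these lists was not tested.

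**Figure D5:**
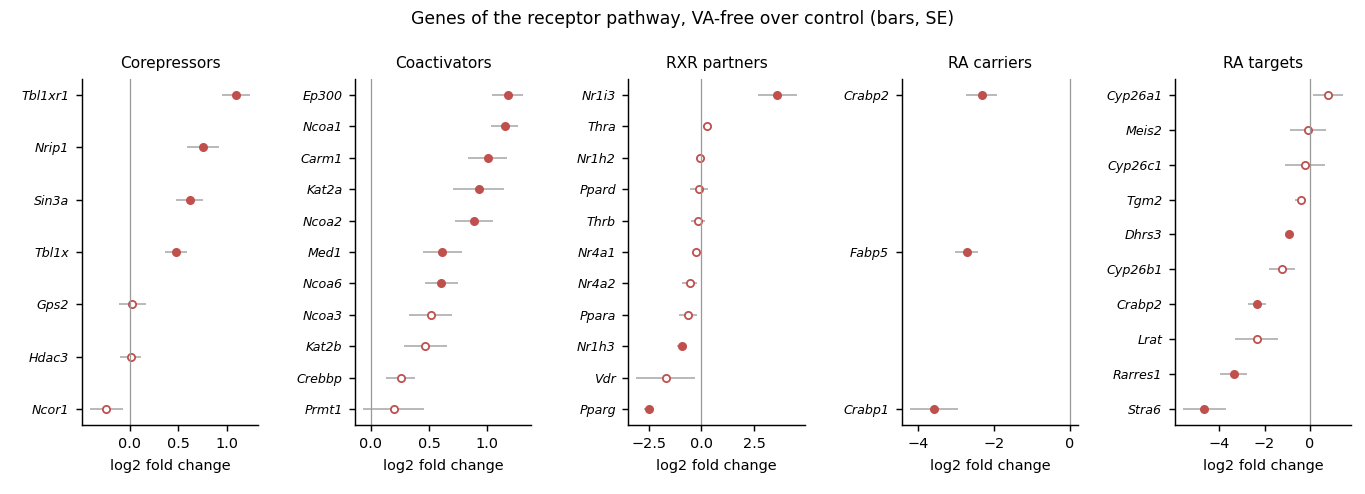
Log2 fold change, VA-free over control (horizontal axis, own scale in each panel), of the tested genes of 5 lists (a few that are not reported here are not drawn), with SE as bars and filled circles for an adjusted p under 0.05. Corepressors and coactivators lie mostly to the right of 0 (5 of 8 and 7 of 11 rose, counted over the whole lists), and the 3 carriers and 6 of 12 RA targets fell.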

How the data were processed

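RNA of sorted MuSCs was measured in 8 libraries of 5 mice. The authors made the estimated counts by pseudoalignment with kallisto (0.46.2 in the submitters' processing notes) to the Ensembl 96 transcripts of GRCm38 and deposited these estimated counts per transcript without normalization. The authors' deposited TPM are the same estimates per effective length, scaled to a common total, and keep no depth. SMART-Seq v4 cDNA in Nextera XT libraries carries no strand, and amplified fragments have no molecular identifiers, so counting error is a lower limit.

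Counts were added per gene through the GENCODE M21 annotation (Ensembl 96), added over the technical libraries of a mouse, and rounded. The diets were set against each other by edgeR 4.0.16 under R 4.3.3 (filterByExpr, TMM, quasi-likelihood test, Benjamini-Hochberg over all genes, threshold 0.05). Transcripts were tested likewise, and their shares with diffSpliceDGE or limma 3.58.1. Standard errors are the log2 fold change over the root of F. DESeq2 1.42.0, limma-voom, TPM (pseudocount 1 or 0.1), other filters, length and GC offsets, a replicate block and left-out mice or libraries were alternatives. The scripts were tested on simulated data. The members and lists were chosen with earlier results of these data known. By rule the text names the 6 receptors, list genes past the threshold or among the 4 most abundant, and the 3 genes most correlated with each receptor. Transcripts named with a test had an adjusted p under 0.1. A few genes that the rule would name are not reported here, but count in the totals of their lists. Protein sequences were not used here.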

Additional observations from a re-analysis of the deposited data

How the results depend on the processing

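The direction of each receptor gene's difference held in 24 of 24 alternatives. Rxra passed the threshold in 22 of 24, Rxrb in 21, Rarg in 16, Rxrg in 14, Rarb in 12 and Rara in 8. For every call gained or lost that follows, the cause was not tested. Rara passed with no filter (0.68), DESeq2 (0.69), limma-voom (0.78), TPM with a pseudocount of 1 (1.10) or 0.1 (1.16) and the GC trend removed (0.58). With 8 libraries as separate samples, Rarb (0.65), Rarg (0.76) and Rxrb (0.93) no longer passed. With 1 library per mouse, the first by letter, control mouse 2 was represented by library 2A alone. In that setting Rarb (0.49), Rarg (1.63), Rxra (2.02), Rxrb (1.44) and Rxrg (-1.23) no longer passed. Rarb was also lost with the GC trend removed (0.72), and Rxrg with TPM at a pseudocount of 1 (-0.46) or 0.1 (-0.61). TPM moved the median of all genes by 0.19 or 0.35, relative to which Rxrg stood at -0.65 and -0.97 and the other receptors at 0.80 to 1.49. TPM also turned the split of calls from 3403 higher and 4056 lower to 5799 higher and 2637 lower. With a mouse or library left out, the log2 fold change ran from 0.34 to 1.18 for Rara, 0.48 to 1.01 for Rarb, 0.46 to 1.27 for Rarg, 0.95 to 1.97 for Rxra, 0.59 to 1.30 for Rxrb and -1.32 to -0.76 for Rxrg, and the count of genes past the threshold from 4476 (without control 2B) to 7744. Whether the same replicate number pairs mice could not be judged. The deviations of same-numbered mice correlated at -0.07 and 0.01, but only 2 numbers are shared. With 2 control mice, the deviations of 1 are the negatives of those of the other. The replicate block, which leaves out VA-free mouse 3, took the count of genes to 5242, lost Rarb (0.86, adjusted p = 0.0508) and Rxrg (-1.02, adjusted p = 0.131), and called 0 receptor transcripts against 3. DESeq2 called 6 receptor transcripts, and with a VA-free mouse or control library 2A left out the number ran from 1 to 2. The share of all transcripts called was not taken in these settings, so the counts have no background. The low members rested on few counts, Rxrg on 75 to 296 per library and Rxrb-209 on 0 in the control libraries. The part of depth in their results was not tested.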
